A study of Mus musculus with 16 samples.

Results

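The guidance ligands and receptors described here are 35 genes of the Eph, ephrin, Slit, Robo and netrin systems, taken by name from the 55359 gene IDs counted in mouse fetal cortex. They are 14 ligands (Efna1 to Efna5, Efnb1 to Efnb3, Slit1 to Slit3, Ntn1, Ntn4 and Draxin) and 21 receptors (9 EphA and 5 EphB receptors, Robo1 to Robo3, Unc5a to Unc5c and Dcc). All 35 were found by symbol, and all 35 passed the filter on low counts that left 21543 genes for testing. Total RNA of fetal cortex from gestational day 16 was sequenced in 16 libraries, 2 for each sex in each of 4 groups. In the control group neither parent is labelled as exposed to ethanol. In the paternal group (Paternal EtOH) the father was exposed, in the maternal group (Maternal EtOH) the mother, and in the dual group (Dual EtOH) both parents. Each exposure thus held 4 libraries, 2 male and 2 female. The sources used here give no strain, dose or length of exposure. Whether the libraries of a group came from separate fetuses or litters is not in the labels. The p-values therefore cover only the spread between the libraries, part of which may be technical.

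Growing axons steer by surface and secreted cues, and these families supply many of them. Ephrins are membrane-bound ligands of the Eph receptor tyrosine kinases: the A class is anchored by a lipid and the B class spans the membrane, so that ephrin-B can also signal back into the cell that carries it. Slit proteins are secreted repellents that bind Robo receptors, and netrin-1 is a secreted cue that attracts axons through Dcc and repels them through Unc5 receptors. In the developing cortex these systems guide corticofugal, commissural and thalamocortical axons and help neurons to settle in their layers, and Efnb2, Ephb4 and Unc5b also act in blood vessels.

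The libraries held 15336566 to 19966696 counts in males and 26134287 to 35218456 in females, so sex and depth cannot be told apart. The 10 markers of cortical excitatory neurons and progenitors summed to between 2428 and 2994 CPM (counts scaled to a fixed library total) in all 16 libraries, and none was at 0. Female control replicate 1 held few meningeal transcripts (7 markers summing to 54.3 CPM, against 152 to 415 in the other 15 libraries). Female control replicate 2 held more of the thalamic ones (4 markers summing to 96.0 CPM, against 30.3 to 52.4). The female dual libraries had the highest share of counts on TEC and sense-intronic genes, annotation classes for transcripts of unproven status and for transcripts within introns (0.872% and 0.860%, against 0.280% to 0.534% in the others). They also had the highest levels of Malat1, a nuclear RNA (5672 and 5847 CPM, against 2704 to 5042). Xist, a marker of female sex, was at 1641 and 1671 CPM there, against 503 to 815 in the other female libraries. The share of counts on unnamed IDs (without a gene symbol) ran from 1.73% in female dual replicate 1 to 17.8% in male dual replicate 2. It was 14.2% in male paternal replicate 1.

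Ligands and receptors were present at levels that differed widely between genes and little between libraries. Levels are compared between genes as CPM per kb of exon, with CPM scaled by TMM, and are given as the mean of the 16 libraries with the SD. The length is that of all annotated exons of a gene merged, and the order of the genes depends on it. Over the 16 libraries the coefficient of variation of CPM had a median of 11.3% among the 35 genes (5.20% to 49.6%), and 30 of them were under 20%. The heat map of levels by library shows this flat pattern, broken mainly by genes of low count.

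**Figure D1:**
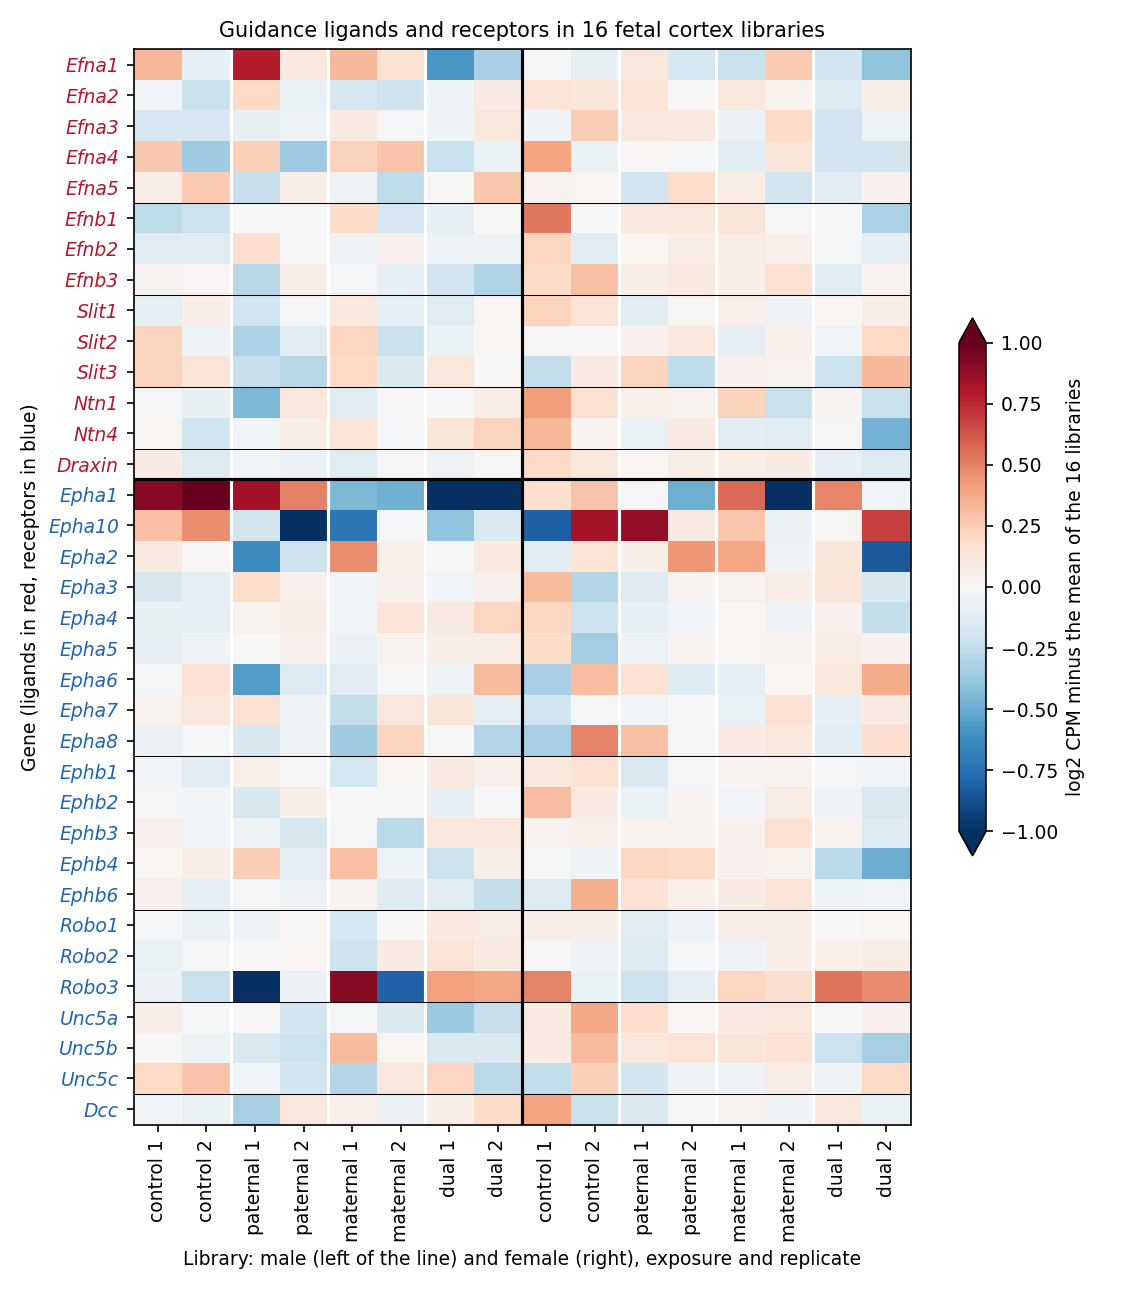
Heat map of the 35 guidance genes (rows, ligands above and receptors below the thick line) in the 16 libraries (columns, male left and female right), coloured by log2 CPM minus the gene's mean over the libraries. Most cells are pale: 30 of the 35 genes have a coefficient of variation under 20%, and the darkest cells belong to low-count receptors such as Epha1 and Robo3.

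Among the ligands the transmembrane ephrins stood highest. Efnb2, a ligand of EphB receptors and of Epha4, was at 54.9 ± 3.91 CPM per kb, and Efnb3, the ephrin-B of the midline that halts corticospinal axons, at 50.5 ± 5.55, so that their ranges of ± 1 SD overlapped. Draxin, a secreted repellent that binds Dcc and netrin-1, followed at 31.2 ± 2.08, and Efnb1, an X-linked ephrin-B of cortical progenitors, at 31.0 ± 4.55. Slit1 was at 18.1 ± 1.37 CPM per kb, about the level of Efna2 (17.7 ± 1.58) and well above Slit2 (2.17 ± 0.219) and Slit3 (2.17 ± 0.298). Slit2 has 25433 bases of annotated exon, against 5921 for Slit1 and 6067 for Slit3. Not divided by length, the median CPM was 108 for Slit1, 55.0 for Slit2 and 13.4 for Slit3. Ntn1 stood at 9.94 ± 1.36 and Ntn4, a netrin of basement membranes, at 3.95 ± 0.477. Of the lipid-anchored ephrins, Efna5 (8.69 ± 0.979) and Efna3 (8.32 ± 0.763) did not differ beyond their spread, Efna4 was at 3.35 ± 0.550, and Efna1 was the lowest ligand at 1.5 ± 0.372.

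Among the receptors Epha4, which binds ephrins of both classes, led at 36.9 ± 3.33 CPM per kb, with the Slit receptors Robo1 at 35.6 ± 1.85 and Robo2 at 33.7 ± 2.0 within its spread. The netrin receptor Dcc (24.5 ± 2.93), Epha5 (23.4 ± 1.71), Epha3 (21.7 ± 2.23) and Ephb1 (20.5 ± 1.24) came next, and neighbours in that order overlapped within their SDs. Ephb2 was at 16.6 ± 1.32, Epha7 at 12.8 ± 1.04 and Ephb6, an Eph receptor without kinase activity, at 10.2 ± 1.03. The repulsive netrin receptors were lower, with Unc5a at 8.37 ± 1.02, Unc5b at 3.65 ± 0.483 and Unc5c at 3.23 ± 0.434. Not divided by length, Unc5c was the highest of them, with a median CPM of 59.9, against 34.9 for Unc5a and 22.8 for Unc5b. Ephb4, the venous receptor of ephrin-B2, was at 4.33 ± 0.582. Epha2, Epha10, Robo3 and Epha1 were the lowest, at 0.658, 0.405, 0.298 and 0.240 CPM per kb. Their raw counts per library ran as low as 26, 21, 6 and 5, so their changes are the least precisely measured of the set.

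Paternal exposure moved none of the 35 genes past the threshold. With edgeR's quasi-likelihood test and Benjamini-Hochberg adjustment over the 21543 genes, 0 of 35 had an adjusted p under 0.05. The share of all genes called was 0%, DESeq2 also called 0 of the 35, and 2 of the 35 had an unadjusted p under 0.05 (beside 8.45% of all genes). The median log2 fold change was -0.09 over the 14 ligands and -0.07 over the 21 receptors, against -0.01 over all genes tested. The 3 genes of smallest p were Slit1, the Unc5 receptor Unc5c and Efnb3. Slit1 had 99.9 and 112 CPM in male and 125 and 117 in female controls, and 93.4, 105, 99.6 and 108 in the paternal libraries in the same order. The paternal and control values of Slit1 overlapped in males and did not in females. Its fitted log2 fold change was -0.16 ± 0.06 (SE, adjusted p = 0.547 by edgeR), that of Unc5c -0.24 ± 0.11 (0.590) and that of Efnb3 -0.13 ± 0.07 (0.605). Without female control replicate 1 the count was 3, all higher: Efnb2, Epha3 and Epha5 (3.04% of all genes called in that refit).

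Maternal exposure likewise moved 0 of 35 genes past the threshold in edgeR, with 0% of all genes called. DESeq2 called 0 of the 35 as well, and 1 of the 35 had an unadjusted p under 0.05 (beside 3.79% of all genes). The median log2 fold change was -0.06 over the ligands and -0.02 over the receptors, against 0.00 over all genes. Epha1, an Eph receptor best known from epithelia, had the smallest p, with a log2 fold change of -0.89 ± 0.34 (SE, adjusted p = 0.998 by edgeR). The ephrin Efna5, known for mapping thalamic axons onto cortical areas, followed with -0.20 ± 0.10 and Unc5a with -0.13 ± 0.08, both with an adjusted p of 0.998. Efna5 was at 36.7, 41.8, 35.6 and 35.4 CPM in the controls and at 33.5, 29.2, 36.6 and 30.5 CPM in the maternal libraries, so that the groups overlapped through female maternal replicate 1. Without female control replicate 1 the count was 1, Epha5, as higher (0.390% of all genes called).

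**Figure D2:**
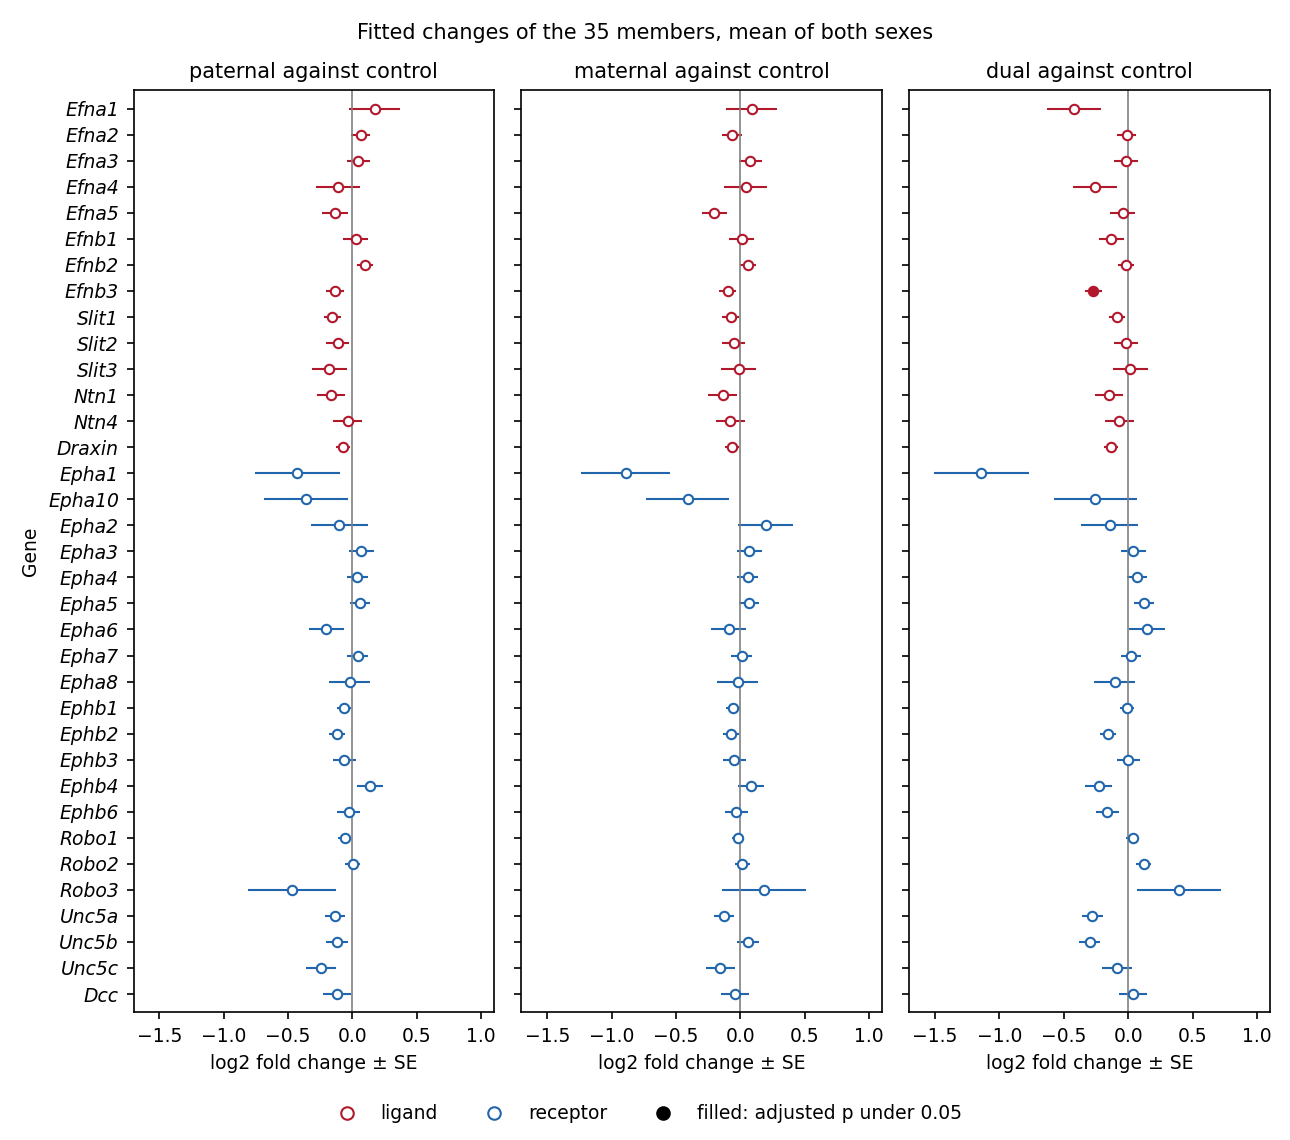
Fitted log2 fold changes against control (points, bars ± SE) of the 14 ligands (red) and 21 receptors (blue) for paternal, maternal and dual exposure, averaged over both sexes. Only Efnb3 under dual exposure is filled (adjusted p under 0.05); wide bars mark low-count genes such as Epha1.

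Dual exposure lowered 1 of the 35 genes, the ligand Efnb3, and raised none. Over all genes 3.36% were called in either direction and 0.641% as lower, beside 1 of 35 here. The ligands lay mostly below 0, with 13 of 14 at a negative log2 fold change and a median of -0.08, while 11 of 21 receptors were negative with a median of -0.01, against a median of 0.00 over all genes. Scaled and fitted on protein-coding genes alone, 9 of 14 ligands were negative with a median of -0.04, and no member was called. In males alone 8 of 14 ligands were negative (median -0.01). The same 8 of 14 (median -0.01) came from a refit without the female dual libraries. That refit also compares the male groups alone, so it is no separate check on the female dual libraries. With the TEC and sense-intronic share as covariate, which is highest in those libraries and cannot be told apart from dual exposure in females, 5 of 14 were negative, the median turned to 0.07 and no member was called.

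Efnb3 had 163 and 161 CPM in male controls, 132 and 168 in male paternal, 158 and 151 in male maternal and 140.0 and 129.8 in male dual libraries. In females it had 181 and 196 CPM in controls, 167 and 171 in paternal, 167 and 177 in maternal and 147 and 164 in dual libraries. Within each sex both dual libraries lay below both controls, and female dual replicate 2 overlapped the male controls. The fitted change was -0.27 ± 0.07 (SE) on the log2 scale, a fold of 0.83 (0.756 to 0.909, ± 2 SE), with an adjusted p of 0.0326 by edgeR. Taken by sex the change was -0.26 ± 0.10 in males (adjusted p = 0.942) and -0.28 ± 0.09 in females (adjusted p = 0.0538), and the male minus female difference was 0.02 ± 0.13 (adjusted p = 0.965). The call was lost when male control replicate 1 or 2, male dual replicate 1 or 2 or female dual replicate 1 was left out (adjusted p 0.0572 to 0.152, log2 fold changes -0.30 to -0.24). It was also lost with the TEC and sense-intronic share as covariate (-0.54). Without both female dual libraries, where the male groups alone are compared, it was lost too (-0.26, adjusted p = 0.953 by edgeR).

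The netrin receptors Unc5b and Unc5a came next and missed the threshold. Unc5b, which also guides vessel sprouts, had a log2 fold change of -0.30 ± 0.08 (adjusted p = 0.0608 by edgeR) and Unc5a, a receptor of neurons, -0.28 ± 0.08 (0.0639). DESeq2 called both (0.0421 and 0.0415), where it called 4.61% of all genes. Unc5a had 36.2 and 34.3 CPM in male and 37.0 and 45.3 in female controls, against 26.7 and 29.5 in male dual and 34.5 and 35.8 in female dual libraries. Both dual libraries of each sex lay below both controls of that sex. The third Unc5 receptor, Unc5c, was at -0.09 ± 0.11 (adjusted p = 0.722), and Dcc, the receptor for netrin attraction, at 0.04 ± 0.11 (0.894). Without female control replicate 1 the dual count was 6 (Efnb3, Unc5a, Unc5b and Ephb6 lower, Epha3 and Epha5 higher), where 9.32% of all genes were called. Leaving out female control replicate 2 gave 2 (Efnb3 and Ephb2), where 4.11% were called.

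**Figure D3:**
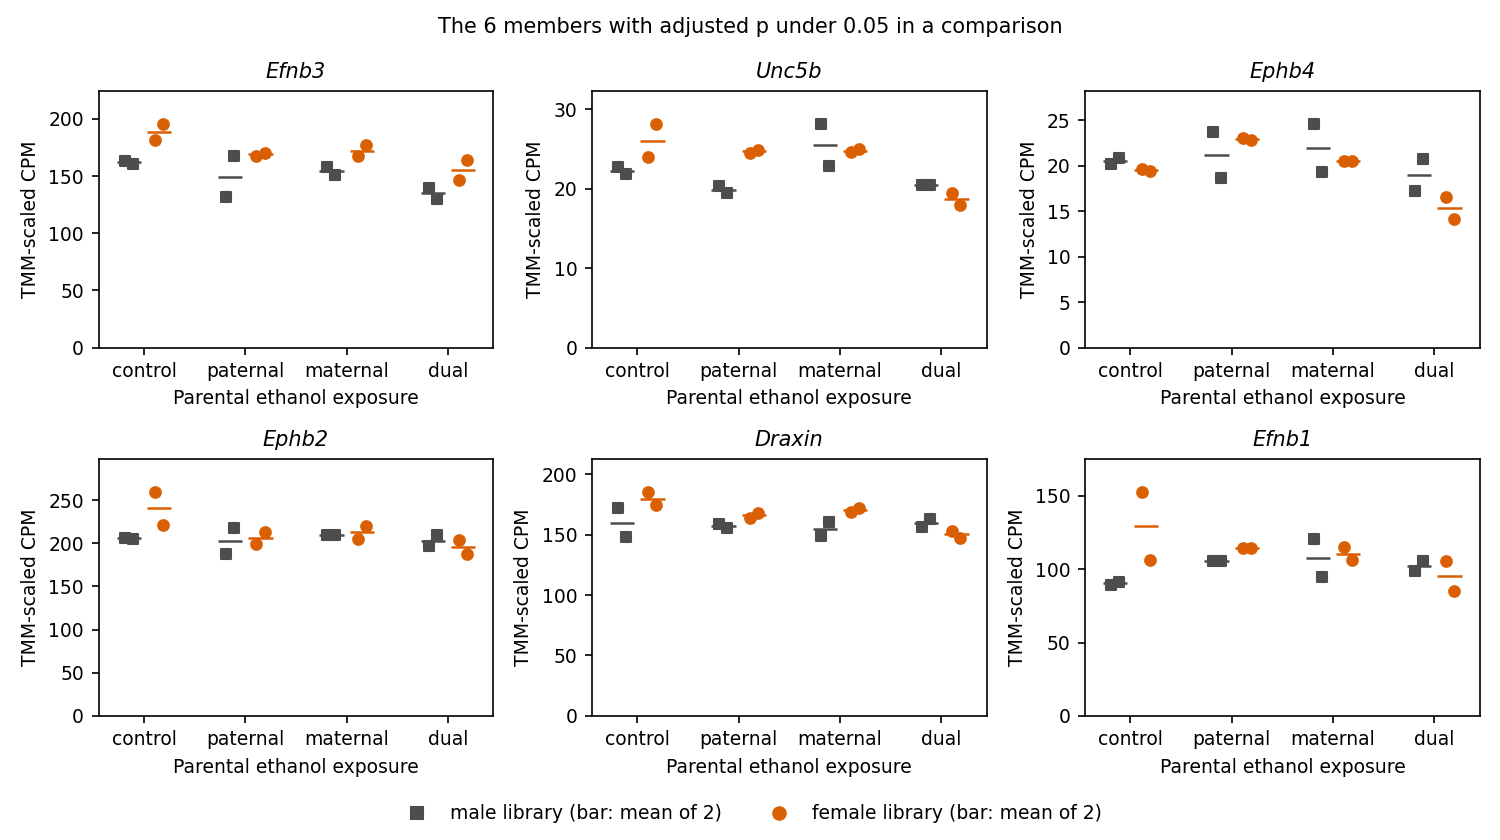
TMM-scaled CPM of Efnb3, Unc5b, Ephb4, Ephb2, Draxin and Efnb1 in each library by exposure (squares male, circles female, bars the mean of 2). Efnb3 is lower in both dual libraries of each sex than in both controls of that sex, whereas the means of Ephb2, Draxin and Efnb1 are highest in the female controls.

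Against maternal exposure alone, dual exposure lowered 1 of 35 genes, Unc5b, where 5.76% of all genes were called and 1.34% were called as lower. Unc5b had 28.1 and 22.9 CPM in male maternal and 24.6 and 25.0 in female maternal libraries, against 20.5 and 20.4 in male dual and 19.5 and 18.0 in female dual libraries. All 4 dual libraries lay below all 4 maternal ones. The controls of Unc5b were at 22.7, 21.9, 24.0 and 28.2 CPM, also above every dual library, and the paternal libraries were at 20.3 and 19.5 in males and 24.5 and 24.9 in females. The fitted dual-to-maternal change was -0.36 ± 0.08 (SE), a fold of 0.779 (0.693 to 0.875, ± 2 SE), with an adjusted p of 0.0179 by edgeR. Ephb4 (-0.31 ± 0.10, adjusted p = 0.0816) and Efnb3 (-0.17 ± 0.07, 0.141) followed. The Unc5b call was lost without male dual replicate 1, male maternal replicate 1, either female maternal library or female dual replicate 2 (adjusted p 0.0533 to 0.105). It was also lost with the TEC and sense-intronic share as covariate (-0.35). Without both female dual libraries, where the male groups alone are compared, it was lost too (-0.32, adjusted p = 0.646 by edgeR). Without male maternal replicate 2 the change of Ephb4 was -0.41.

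Against paternal exposure alone, dual exposure lowered 1 of 35 genes, Ephb4, where 8.81% of all genes were called and 2.16% were called as lower. Ephb4 had 23.7 and 18.7 CPM in male paternal and 23.0 and 22.8 in female paternal libraries, against 17.2 and 20.7 in male dual and 16.6 and 14.2 in female dual libraries. The groups overlapped in males, where male dual replicate 2 exceeded male paternal replicate 2, and stood apart in females. Controls of Ephb4 were at 20.2, 20.9, 19.7 and 19.4 CPM and maternal libraries at 24.6, 19.3, 20.5 and 20.5. The fitted change was -0.37 ± 0.10 (SE), a fold of 0.776 (0.674 to 0.894, ± 2 SE), with an adjusted p of 0.0334 by edgeR. Efna1, an ephrin also made by endothelium, was at -0.59 ± 0.21 (adjusted p = 0.0885). Robo3, the Robo receptor of commissural axons, was at 0.87 ± 0.34 (adjusted p = 0.126). The Ephb4 call was lost without male paternal replicate 1, male dual replicate 1, either female paternal library or female dual replicate 2 (adjusted p 0.0784 to 0.180). It was also lost without both female dual libraries, where the male groups alone are compared (-0.15, adjusted p = 0.832 by edgeR). With the TEC and sense-intronic share as covariate no gene was called, and Ephb4 turned to 0.0895 and Efna1 to 0.68. Without male paternal replicate 2 the change was -0.75 for Efna1 and 1.56 for Robo3. Male paternal replicate 1, then the only male paternal library, had Efna1 at 4.62 CPM (the other paternal libraries 2.38 to 2.91). Its Robo3 was at 0.447 CPM (the other paternal libraries 1.62 to 1.80).

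Markers of blood vessel cells, meninges and microglia were also lower in dual exposure against maternal and against paternal exposure, which called Unc5b and Ephb4. The 8 markers of endothelium and pericytes summed to 287 to 451 CPM in controls, 416 to 447 in paternal, 407 to 454 in maternal and 291 to 375 in dual libraries, and none was at 0. Of the 8, 1 was called as lower in dual exposure against control, 6 against paternal and 4 against maternal, and 0 as higher. Over all genes 0.641%, 2.16% and 1.34% were called as lower in that order. Pecam1, an endothelial adhesion molecule, was at -0.40 ± 0.09 against control (adjusted p = 0.0270), -0.51 ± 0.09 against paternal (0.00293) and -0.54 ± 0.09 against maternal (0.00280). The 7 markers of meninges and fibroblasts summed to 54.3 to 348 CPM in controls, 285 to 409 in paternal, 247 to 415 in maternal and 152 to 267 in dual libraries. All 7 had a negative log2 fold change in dual exposure against paternal (median -0.82, 1 called) and against maternal exposure (median -0.66, 0 called). The 6 markers of microglia and macrophages summed to 40.8 to 76.0 CPM in controls, 72.9 to 98.0 in paternal, 52.2 to 76.9 in maternal and 36.5 to 60.6 in dual libraries. Of these, 3 were called as lower against paternal exposure (median -0.51) and 0 against maternal exposure, and no marker of either list was at 0. The dual and paternal sums did not overlap for any of the 3 lists. In dual exposure against control in females, which called Unc5b too, the meningeal markers had a median of 0.26. The vessel and microglial medians there were -0.29 and -0.33. In that contrast 1 meningeal marker was called as higher, 1 vessel marker as lower and 0 microglial ones, where 15.0% of all genes were called.

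Unc5b and Ephb4 went with the vessel markers in some libraries and not in others. Both genes were lowest in female dual replicate 2 (18.0 and 14.2 CPM), where the vessel sum was 291 CPM. Ephb4 was highest in male maternal replicate 1 (24.6 CPM), which had the highest vessel sum (454 CPM). Female control replicate 1 had the lowest vessel sum of the 16 libraries (287 CPM), yet Unc5b at 24.0 and Ephb4 at 19.7 CPM there were above both female dual libraries. Unc5b in the male paternal libraries (20.3 and 19.5 CPM) was at the level of the male dual ones, while the vessel sums there were 447 and 416 CPM. The part of these markers in the changes of Unc5b and Ephb4 was not tested, and in bulk RNA fewer cells of a type and less RNA per cell cannot be told apart.

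In females alone dual exposure lowered 4 of 35 genes and raised none, where 15.0% of all genes were called and 5.64% were called as lower. They were the receptors Unc5b and Ephb2 and the ligands Draxin and Efnb1. Over the ligands 12 of 14 were negative with a median log2 fold change of -0.24, and over the receptors 13 of 21 with a median of -0.10, against 0.02 over all genes. On protein-coding genes alone these medians were -0.16 and -0.02, and no member was called. With the TEC and sense-intronic share as covariate all 4 calls were lost, 7 of 14 ligands were negative with a median of 0.08, and Draxin turned to 0.18. The female dual libraries stand apart in that share and in Malat1, so the covariate and dual exposure in females cannot be told apart.

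Unc5b fell from 24.0 and 28.2 CPM in female controls to 19.5 and 18.0 in female dual libraries, a log2 change of -0.47 ± 0.12 (SE) and a fold of 0.720 (0.613 to 0.845, ± 2 SE, adjusted p = 0.0116 by edgeR). Draxin fell from 185 and 175 CPM to 153 and 147, with female paternal (164, 168) and maternal (169, 172) libraries in between. Its change was -0.26 ± 0.07 (adjusted p = 0.0272 by edgeR), whereas the males were at 172 and 148 CPM in controls and 156 and 163 in dual libraries. Ephb2, a receptor of ephrin-B in commissural and cortical axons, fell from 259 and 222 CPM to 203 and 188, a change of -0.30 ± 0.09 (adjusted p = 0.0274 by edgeR). In males Ephb2 was at 206 and 205 CPM in controls and 197 and 209 in dual libraries. Efnb1 fell from 152 and 106 CPM to 106 and 85.1, a change of -0.44 ± 0.14 (adjusted p = 0.0399 by edgeR). Female control replicate 2 and female dual replicate 1 of Efnb1 were alike at 106 CPM, so its groups met. The male libraries of Efnb1 went the other way, 89.1 and 91.5 CPM in controls and 99.0 and 105 in dual exposure (log2 fold change 0.18, adjusted p = 0.942).

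The calls of Ephb2, Efnb1 and Draxin each depended on single libraries, among them female control replicate 1. Without it the change was -0.18 for Ephb2 (adjusted p = 0.167), -0.16 for Efnb1 (0.400) and -0.22 for Draxin (0.0803). That library is the one with the fewest meningeal transcripts, and the part of its makeup in these changes was not tested. Without female control replicate 2 the change of Unc5b was -0.36 (adjusted p = 0.0594) and the count in females was 10 (18.3% of all genes called). Without female dual replicate 1 the call of Draxin was lost (-0.30, adjusted p = 0.0615), and without female dual replicate 2 no member was called. Fitted on the 4 female control and dual libraries alone, 0 of 35 passed (adjusted p 0.0946 for Unc5b to 0.180 for Efnb1).

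In males alone dual exposure moved 0 of 35 genes past the threshold in edgeR, with 0% of all genes called. By DESeq2 it was also 0 of the 35, and 4 of the 35 had an unadjusted p under 0.05 (beside 4.86% of all genes). The low-count receptor Epha1 had the smallest p. It was at 1.57 and 1.96 CPM in male controls, 1.49 and 1.18 in male paternal, 0.610 and 0.597 in male maternal and 0.320 and 0.383 in male dual libraries. The male values of the 4 groups did not overlap and stood in that order, with raw counts as low as 5 in a library. The fitted dual change in males was -2.32 ± 0.57 (SE, adjusted p = 0.942 by edgeR). In females Epha1 had 0.935 and 1.01 CPM in controls and 1.17 and 0.820 in dual libraries, a change of 0.03 (adjusted p = 0.970). Unc5a (-0.33 ± 0.12) and Efnb3 (-0.26 ± 0.10) came next in males, both with an adjusted p of 0.942.

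The difference between the male and the female effect of dual exposure was tested directly. No member passed in edgeR (0 of 35, where 3.50% of all genes were called), and 8 of 35 had an unadjusted p under 0.05 (beside 20.4% of all genes). DESeq2 called 1, Efnb1, where it called 4.99% of all genes. Epha1 was at -2.35 ± 0.74 (SE, adjusted p = 0.0851), Efnb1 at 0.62 ± 0.20 (0.0887, DESeq2 0.0455) and Ntn4 at 0.65 ± 0.23 (0.117). For Efnb1 and Ntn4 the female log2 change lay below the male one. Without female control replicate 2, 8 of 35 members passed this test, where 12.9% of all genes passed.

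The RefSeq promoter table (build GRCm38.p6, an earlier build than that of the counts) held entries for 31 of the 35 genes, and 5 of the 6 genes called in any comparison were among them. The 150 bases before the annotated start of these 5 are printed 5′ to 3′ on the gene's strand, since they are the genes the comparisons turn on. Capitals mark the GC box, searched as GGGCGG on both strands.
Draxin, chr4:148130699-148130848, minus strand: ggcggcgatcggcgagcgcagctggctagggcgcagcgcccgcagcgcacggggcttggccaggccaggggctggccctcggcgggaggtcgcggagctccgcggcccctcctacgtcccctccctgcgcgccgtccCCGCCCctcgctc
Ephb2, chr4:136836013-136836162, minus strand: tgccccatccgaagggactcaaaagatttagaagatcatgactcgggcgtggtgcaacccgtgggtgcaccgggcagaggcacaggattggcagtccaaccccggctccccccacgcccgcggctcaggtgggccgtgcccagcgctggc
Ephb4, chr5:137349959-137350108, plus strand: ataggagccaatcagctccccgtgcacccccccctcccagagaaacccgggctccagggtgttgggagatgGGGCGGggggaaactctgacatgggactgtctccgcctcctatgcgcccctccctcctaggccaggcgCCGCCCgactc
Unc5b, chr10:60831582-60831731, minus strand: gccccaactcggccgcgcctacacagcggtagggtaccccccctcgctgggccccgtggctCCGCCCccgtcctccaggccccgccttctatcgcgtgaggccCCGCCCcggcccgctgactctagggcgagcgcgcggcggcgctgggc
Efnb1, chrX:99135911-99136060, plus strand: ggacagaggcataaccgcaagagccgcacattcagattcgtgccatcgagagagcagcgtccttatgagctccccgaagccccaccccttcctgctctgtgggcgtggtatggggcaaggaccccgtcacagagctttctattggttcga
Ephb4 and Unc5b each held 2 GC boxes in this window, Draxin held 1, and Ephb2 and Efnb1 held none. Of 36 promoters of the 31 members, 25 (69.4%) held a GC box, against 28.6% of 32851 promoters in the table. The base composition differed as well, with a median of 66.7% G and C in the members' windows and 54% over all. A TATA box, searched as TATAAA on both strands, was in 2 of the 36 (5.56%) and in 7.57% of all promoters. These matches describe letters in the window and not binding.

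Set against each other by library, ligands summed to 228 to 286 CPM per kb and receptors to 252 to 290. The ligand sum over the receptor sum was 0.912 and 0.888 in male controls, 0.904 and 0.905 in male paternal, 0.963 and 0.860 in male maternal and 0.836 and 0.851 in male dual libraries. In females it was 0.984 and 0.990 in controls, 0.984 and 0.959 in paternal, 0.946 and 0.917 in maternal and 0.861 and 0.896 in dual libraries. In each sex both dual libraries had a lower ratio than every other library of that sex. With CPM not divided by exon length the ratio ran from 0.342 to 0.409, and both dual libraries were again lowest in each sex. Female controls were above all male libraries in this ratio, while the female dual libraries lay within the male range. Sex and depth cannot be told apart here.

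The lower ratio in males went with higher receptor sums (258 and 258 CPM per kb in controls, 273 and 277 in dual libraries). In females it went with lower ligand sums (286 and 258 in controls, 232 and 230.5 in dual libraries). Of the ligand families the ephrin-B ligands were the largest, with 165 and 143 CPM per kb in female controls and 131 and 127 in female dual libraries, and 127 and 127 in male controls and 125 and 124 in male dual libraries. The Robo receptors summed to 67.8 and 67.4 CPM per kb in male controls and 75.5 and 73.7 in male dual libraries, and to 71.0, 70.0, 70.7 and 71.7 in the corresponding female libraries. These sums are a description with no test, since the members were chosen with earlier results of these data known.

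**Figure D4:**
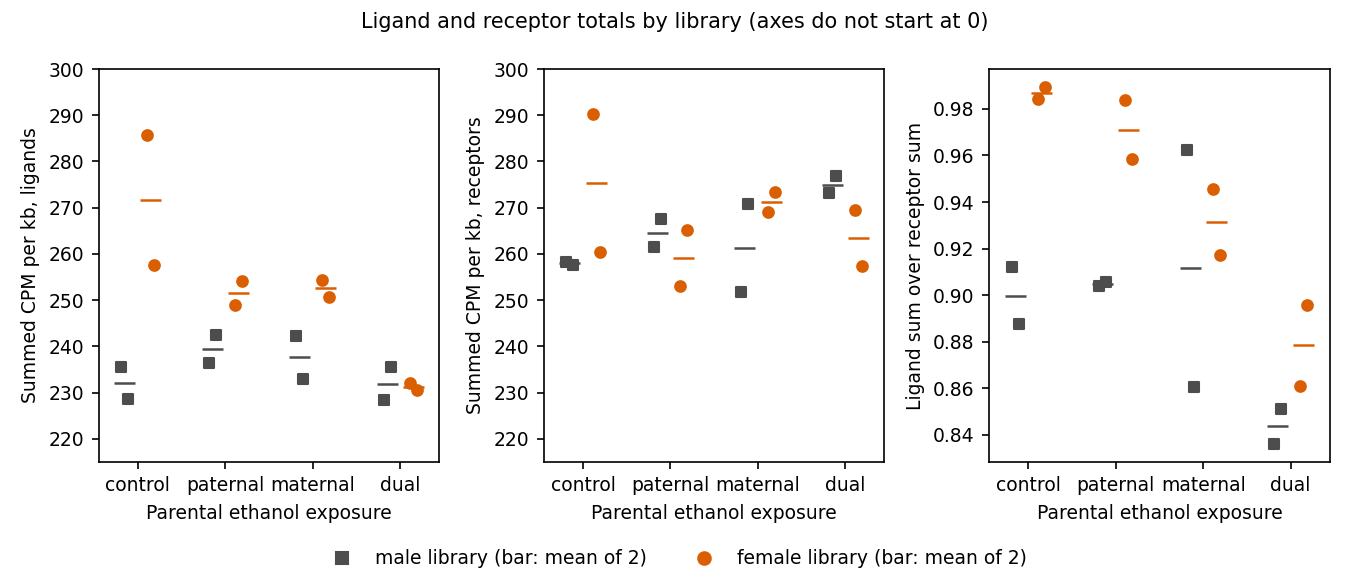
Summed CPM per kb of the 14 ligands (left) and 21 receptors (middle) and their ratio (right) in each library by exposure (squares male, circles female, bars the mean of 2; axes do not start at 0). The dual libraries have ratios of 0.836 and 0.851 in males and 0.861 and 0.896 in females, each below the other libraries of that sex.

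The size of a gene went with its change under dual exposure. Receptor genes are long, with a median span of 148 kb in the GENCODE M21 annotation (14.8 to 1097 kb), and ligand genes shorter, with a median of 38.0 kb (4.64 to 587 kb). Across the 35 genes Spearman's rank correlation between span and log2 fold change was 0.56 for dual exposure against control, 0.71 against paternal and 0.61 against maternal, 0.22 in males alone and 0.47 in females alone. The genes share the same libraries, so this is a description with no p. Over 15009 protein-coding genes the same values were 0.19, 0.23, 0.24, 0.04 and 0.20. For paternal and maternal exposure against control they were -0.20 and -0.18 in the 35 genes.

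The 17 members that span over 100 kb, among them Dcc, Robo1, Robo2 and Epha5, had a median log2 fold change of 0.02 under dual exposure against control. The 18 shorter ones, among them Efnb3, Ephb4, Unc5a and Unc5b, had a median of -0.15. Over protein-coding genes the medians were 0.00 for 2325 long and -0.05 for 12684 shorter genes. Each of the 6 members called in a comparison spans under 100 kb except Ephb2, at 188 kb. Ligand or receptor role and gene span go together in this set and cannot be told apart in the ratio of ligands to receptors.

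**Figure D5:**
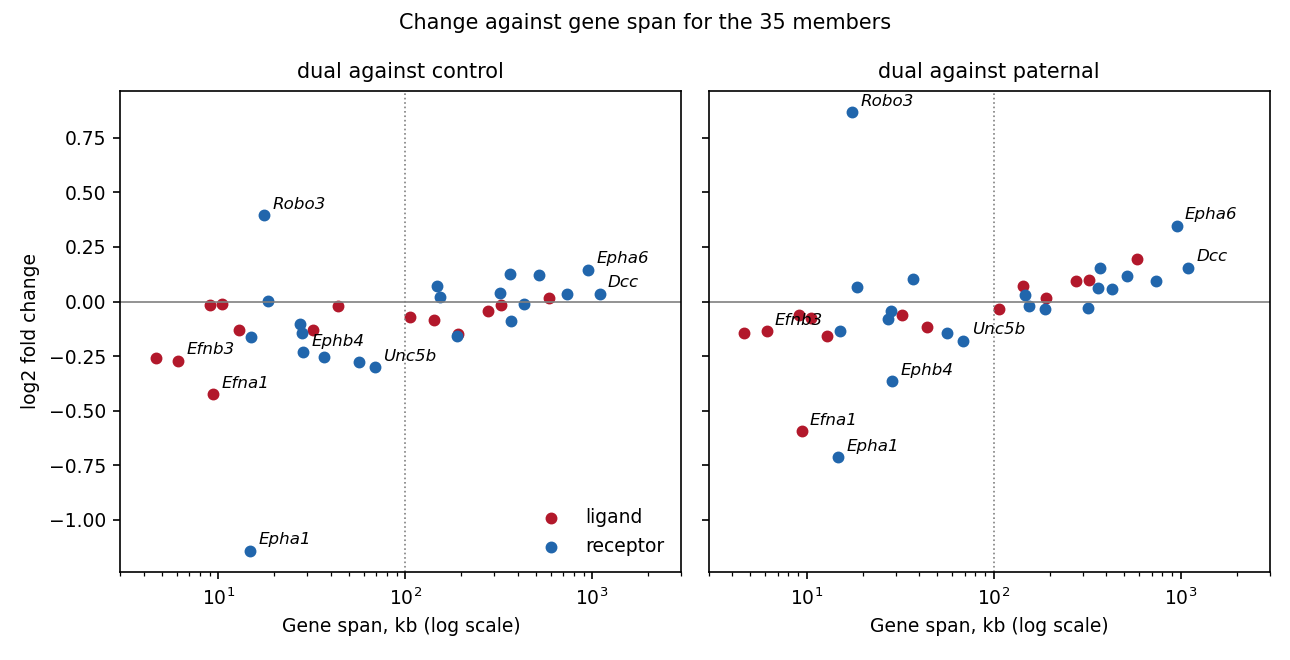
Log2 fold change of the 35 genes against gene span in kb (log axis) for dual exposure against control (left) and against paternal exposure (right), ligands in red and receptors in blue, with the dotted line at 100 kb. Against control the median was 0.02 for members over 100 kb, which lay on both sides of 0, and -0.15 for shorter ones.

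Other genes of the same pathways were followed in 17 co-ligands and co-receptors and 38 intracellular effectors. For paternal and maternal exposure against control, for dual exposure against control and for dual exposure in males, edgeR called 0 of 17 and 0 of 38. At an unadjusted p under 0.05 the counts in that order were 2, 1, 7 and 0 of the 17 and 3, 0, 8 and 1 of the 38, beside 8.45%, 3.79%, 19.7% and 4.86% of all genes. In females dual exposure lowered 5 of 17 co-ligands and co-receptors and raised none, where 15.0% of all genes were called and 5.64% were called as lower. Gpc1, a heparan sulfate proteoglycan that binds Slit, fell from 190.2 and 170.1 CPM to 138 and 118, a log2 change of -0.49 ± 0.09 (adjusted p = 0.00177 by edgeR). Dag1, the dystroglycan that holds Slit in place, fell by 0.31 (adjusted p = 0.00536). Rgmb and Rgma, ligands of neogenin, fell by 0.31 and 0.32 (0.00355 and 0.0190). Neogenin itself, Neo1, a relative of Dcc, is named after its value was seen and fell by 0.22 (0.0334).

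Of the 38 effectors dual exposure lowered 4 and raised 2 in females, a number near the 15.0% called over all genes. The kinases Src (-0.27), Fyn (-0.23) and Pak1 (-0.25), which act below Dcc and Eph receptors, and Pitpna (-0.23), a lipid transfer protein in netrin signalling, fell, with adjusted p from 0.0175 to 0.0366 by edgeR. The kinases Rock1 (0.43) and Rock2 (0.27), which contract the growth cone below Eph receptors, rose with adjusted p of 0.00917 and 0.0163. Rock1 went from 98.2 and 74.3 CPM in female controls to 112 and 119.6 in female dual libraries, and Rock2 from 126 and 119 to 142 and 152. For Rock1 and for Rock2 both dual libraries lay above both controls. Against paternal exposure, dual exposure lowered 1 of the 38 effectors, Cdc42, a regulator of the actin skeleton (-0.18, adjusted p = 0.0435 by edgeR). It raised 1, Kalrn, a guanine nucleotide exchange factor (0.20, 0.0156). Against maternal exposure it lowered 1 of the 38, Vasp, an actin regulator (-0.28, 0.0339), and raised none. Of the 17 co-ligands and co-receptors 0 were called in either comparison. Over all genes 8.81% were called against paternal and 5.76% against maternal exposure. For the male minus female effect Gpc1 (0.56, adjusted p = 0.0254) and Rgmb (0.35, 0.0430) passed, where 3.50% of all genes passed, their female log2 changes lying below the male ones.

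Single libraries decided most of these pathway calls. In females the calls of Rock1 and Rock2 were lost without female control replicate 2 (0.23 and 0.21, adjusted p = 0.0580 and 0.0590) or female dual replicate 2 (0.0832 and 0.151). The call of Src was lost without female dual replicate 2 (0.125). Those of Fyn, Pitpna and Rgma were lost without female control replicate 2 or either female dual library (0.0554 to 0.199). Those of Pak1 and Neo1 were lost without female control replicate 1 or either female dual library (0.0893 to 0.144). On protein-coding genes alone Src, Fyn, Pak1, Pitpna, Rgma and Neo1 also missed the threshold (0.109 to 0.209).

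In the female comparison Gpc1, Rgmb and Dag1 stayed under 0.05 without any single library and on protein-coding genes alone. None of the 3 passed with the 4 female control and dual libraries fitted alone (adjusted p 0.0545, 0.0962 and 0.0988) or with the TEC and sense-intronic share as covariate, where no gene was called. The sex difference of Gpc1 was lost on protein-coding genes alone (0.126) and without female dual replicate 2, male control replicate 2 or male dual replicate 2 (0.123 to 0.162). That of Rgmb was lost on protein-coding genes alone (0.176) and in 7 of 8 fits without 1 library, all but the one without female control replicate 2 (0.0530 to 0.222). Against paternal exposure the call of Cdc42 was lost in 7 of 8 such fits, all but the one without male paternal replicate 2 (0.0513 to 0.197), and on protein-coding genes alone (0.201). With the covariate Cdc42 turned to 0.09, and in the female comparison Neo1 turned to 0.20 and Src to 0.16. The call of Kalrn was lost in 6 of 8 such fits, all but those without female dual replicate 1 or male paternal replicate 2 (0.0523 to 0.0940). Against maternal exposure that of Vasp was lost in 6 of 8, all but those without male dual replicate 2 or male maternal replicate 2 (0.0759 to 0.179), and on protein-coding genes alone (0.15).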

How the data were processed

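Total RNA of 16 libraries was analysed from the raw counts per gene that the authors deposited, 1 table per library. The submitters' processing notes name Trimmomatic, STAR, featureCounts and GRCm39. Tool versions, annotation release, strand setting and multimapping treatment: not given in the sources used here, so genes that overlap others are uncertain. Symbols, exon lengths and gene spans were taken from GENCODE M21 (GRCm38), matched by ID for 52083 of 55359 IDs.

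Genes were filtered with filterByExpr (minimum count 10, minimum total 15), scaled by TMM and fitted with edgeR 4.0.16 in R 4.3.3 (glmQLFit and glmQLFTest, two-sided) as 8 group means (8 residual degrees of freedom). Exposure contrasts average the male and female differences, and fits without the female dual libraries compare the male groups alone. P-values were adjusted over 21543 genes (Benjamini-Hochberg, threshold 0.05). The fit was tested on simulated data. Replicates differed by more than sampling noise in every group (median squared difference 1.46 to 4.59 in units of counting error, against 0.455 for noise alone).

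The members, the lists and the tests were chosen with earlier results of these data known. Named were, per comparison, members that passed (at most 12) or the 3 of smallest p where fewer than 3 passed, and up to 4 genes per direction of the other 2 pathway lists. Among marker lists not given with the results, striatum and ventral forebrain summed to 539.8 to 753 CPM and hippocampus and hem to 41.0 to 72.0 CPM. Alternatives were DESeq2 1.42.0, its size factors, no filter, a replicate block, covariates, protein-coding genes alone, the compared groups alone and leaving out libraries. The share on unnamed IDs as covariate and the sums without single libraries were added after seeing the data.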

Additional observations from a re-analysis of the deposited data

Results flagged for a closer look

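In 11 of 152 groups of 4 libraries looked at (the 35 genes and 3 sums in 4 exposures), 1 library stood apart from the other 3 by more than Dixon's 95% critical value for 4 values. Chance gives about 1 such group in 20. These gaps ignore that each group holds both sexes.

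Male paternal replicate 1 was the lowest paternal library for Efnb3 (132 CPM, the others 167 to 171), for Ntn1 (45.2 CPM, the others 63.4 to 67.1) and for Robo3 (0.447 CPM, the others 1.62 to 1.80). Female paternal replicate 1 was the highest for Slit3 (15.2 CPM, the others 10.8 to 11.1). Female control replicate 1 was the highest control for Efnb2 (436 CPM, the others 345 to 345) and for the summed receptors (290.2 CPM per kb, the others 258 to 260.4). Male maternal replicate 1 was the lowest maternal library for Epha5 (376 CPM, the others 397 to 400.3) and for Ephb1 (127 CPM, the others 145 to 147). Male control replicate 1 was the highest control for Efna1 (3.38 CPM, the others 2.53 to 2.65), and male control replicate 2 was the lowest for Ephb3 (13.4 CPM, the others 14.03 to 14.2). Female dual replicate 2 was the lowest dual library for Epha2 (1.68 CPM, the others 3.01 to 3.26). No sex difference of an exposure effect passed for any of the 35 genes in edgeR, with the lowest adjusted p at 0.374 for paternal, 0.458 for maternal and 0.0851 for dual exposure, and 1, 1 and 8 genes at an unadjusted p under 0.05.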

How the results depend on the processing

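The 25 member changes named in a comparison kept their direction and side of the threshold in 318 refits. They lost a call in 45, gained one in 14 and turned in 4. Only called members could lose a call: 1 for dual exposure against control, 1 against paternal, 1 against maternal exposure and 4 in females. The rest of the 25 were not called and count as kept while they stay so. The 318 is therefore no measure of how stable the calls are. All 4 that turned had the TEC and sense-intronic share as covariate: Ephb4 at 0.0895 against paternal and 0.0836 against maternal exposure, Efna1 at 0.68 against paternal exposure and Draxin at 0.18 in females. That share is highest in the female dual libraries, so the covariate and dual exposure in females cannot be told apart. With it, 0 members and 0 genes were called in any comparison.

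DESeq2 called 3 members for dual exposure, where it called 4.61% of all genes, and 1 for the sex difference (4.99%). Of all genes it called 22 for paternal, 2 for maternal and 1 for male dual exposure, where edgeR called 0 of each. Without a filter 2 members were called for dual exposure (3.59% of all genes), 3 against paternal (6.87%) and 3 for the sex difference (4.11%). All genes called then were 321 for paternal, 79 for maternal, 1345 for dual, 1931 for dual against maternal, 71 for dual in males and 1542 for the sex difference (0, 0, 724, 1241, 0 and 753 as reported). With the share on unnamed IDs as covariate, 0 members were called for dual exposure and 2 against maternal (3.95% of all genes). That fit called 68 genes for the sex difference. On protein-coding genes alone 0 members were called in any comparison, with 0 genes for dual exposure, 208 against paternal (1898 as reported), 42 against maternal, 712 in females (3229 as reported) and 42 for the sex difference. With the compared groups alone, 335 genes were called for dual exposure, 1962 against maternal, 28 in males, 1061 in females with 0 members, and 105 for the sex difference. Without the female dual libraries, where the male groups alone are compared, 0 members and 0 genes were called for dual exposure against control, paternal or maternal exposure. The cause of these differences was not tested. Some of these fits also held fewer libraries or genes.

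Leaving out 1 library at a time gave 0 to 3 members for paternal and 0 to 1 for maternal exposure, 0 to 6 for dual, 0 to 3 for dual against paternal, 0 to 2 against maternal, 0 to 0 in males, 0 to 10 in females and 0 to 8 for the sex difference. All genes called ran from 0 to 672 for paternal, 0 to 115 for maternal, 142 to 2056 for dual, 764 to 1838 for dual against paternal, 389 to 1064 against maternal, 0 to 13 in males, 1187 to 4032 in females and 18 to 2854 for the sex difference. A lone library left in a group is assumed to vary like the others. The dual-to-control ratio of the ligand to receptor ratios was 0.913 and ran from 0.895 to 0.928.

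The replicate number as a replicate block gave 5 members in females (4 without), where 15.1% of all genes were called. Every other comparison kept the reported member count, and 727 genes were called for dual exposure (724 without). Deviations of same-numbered libraries correlated at -0.143 to 0.183 over 28 pairs of groups (median -0.00285), so the numbers were not taken as pairs. Depth limits the lowest receptors most, such as Epha1 with 5 to 42 counts per library.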
